A study of Homo sapiens with 4 samples.

Results

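The 10 genes described here, H19, MEG3, DLK1, PEG3, PEG10, PLAGL1, NNAT, MEST, SNRPN and GRB10, are imprinted genes other than IGF2. They were chosen by name, with earlier results of these data known. All 10 were found among the 18375 genes of the deposited table, so no member was left unmeasured. RD is an established human cell line of fusion-negative rhabdomyosarcoma, a soft tissue cancer with features of immature skeletal muscle. Polyadenylated RNA was sequenced in 2 libraries of vincristine-resistant RD cells and 2 libraries of untreated parental RD cells, all labelled wild type, with 58861281 and 67270948 reads in resistant and 67690557 and 65818879 in parental libraries over the genes of the table. Vincristine stops cells in mitosis by preventing tubulin from assembling into microtubules. The resistant cells were selected by repeated exposure, from a starting dose of 1 to 1.5 nM that killed about 80 to 90% of the cells, through dose steps of 10 to 20% over 9 to 12 months, until the half-maximal inhibitory concentration had increased at least 100-fold. Whether the 2 libraries of a group are independent cultures or selections is not stated in the labels. The p-values set the group difference against the scatter between libraries, and that scatter may be technical. They therefore cover only these libraries.

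Imprinted genes are expressed mainly from the copy inherited from a given parent, because DNA methylation set in the germ line differs between the parental copies of a control region. They lie in clusters in which a long noncoding RNA from the maternal copy often neighbours a coding gene from the paternal copy, as H19 neighbours IGF2 and MEG3 neighbours DLK1. Many act on fetal growth and are silenced or reduced in adult tissue. Of the genes described here, H19 and MEG3 are maternally expressed RNAs, DLK1, PEG3, PEG10, PLAGL1, NNAT, MEST and SNRPN are paternally expressed, and GRB10 is imprinted in a tissue-dependent way. The counts do not separate the parental copies, and in bulk RNA fewer expressing cells and less RNA per cell cannot be told apart.

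The sequences below are RefSeq promoter windows of GRCh38.p14, from 250 bases before to 50 bases after an annotated start, for PLAGL1 and for the maternally expressed H19 and MEG3. Windows were available for 6 of the 10 genes, 23 in all. For a gene with several starts the window richest in CpG is shown, because CpG is where imprints are written. Capitals mark TGCCGC on either strand, the motif that the imprint-protecting zinc finger protein ZFP57 binds when it is methylated.
PLAGL1, chr6:144008210-144008509, minus strand: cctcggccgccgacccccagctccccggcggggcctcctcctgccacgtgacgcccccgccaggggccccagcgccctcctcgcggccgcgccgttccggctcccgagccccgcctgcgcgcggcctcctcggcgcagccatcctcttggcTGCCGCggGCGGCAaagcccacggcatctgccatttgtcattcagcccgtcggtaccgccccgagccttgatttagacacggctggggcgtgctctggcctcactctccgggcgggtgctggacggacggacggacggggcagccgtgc
MEG3, chr14:100825858-100826157, plus strand: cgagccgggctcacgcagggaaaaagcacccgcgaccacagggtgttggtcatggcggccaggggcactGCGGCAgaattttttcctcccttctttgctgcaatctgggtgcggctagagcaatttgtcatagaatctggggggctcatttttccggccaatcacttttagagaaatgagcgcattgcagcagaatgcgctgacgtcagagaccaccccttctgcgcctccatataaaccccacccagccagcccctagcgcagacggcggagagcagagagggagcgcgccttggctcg
H19, chr11:2001217-2001516, minus strand: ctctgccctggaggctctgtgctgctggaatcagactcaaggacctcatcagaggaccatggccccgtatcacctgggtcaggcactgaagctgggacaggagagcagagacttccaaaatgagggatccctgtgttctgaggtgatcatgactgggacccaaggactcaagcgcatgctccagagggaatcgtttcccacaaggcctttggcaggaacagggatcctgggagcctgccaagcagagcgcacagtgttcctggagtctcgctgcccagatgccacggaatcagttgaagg

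The PLAGL1 window held 39 CpG and 2 matches to TGCCGC, the MEG3 window 19 CpG and 1 match, and the H19 window 6 CpG and 0 matches. Over all 35116 windows of the same length the median was 14 CpG, and 16.7% held TGCCGC. The other PLAGL1 starts ranged down to 2 CpG. The PLAGL1 window also held 1 match to GGGGCCCC, a motif bound by the PLAGL1 protein itself, which 1.95% of all windows held, and 3 matches to the E-box CANNTG of myogenic factors, which 68.7% held. None of the 3 windows printed matched GCCATNTT, a YY1 motif found in 6.58% of windows, or a CTCF core motif, found in 0.0655%, and no TGCCGC match in them overlapped another of these motifs. All motifs were read on both strands, and a match is a description of letters, not of binding. Sequence outside the windows was not searched, so an absent match says nothing about control regions elsewhere at a locus.

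H19, MEST and MEG3 also host microRNA genes, whose mature sequences from RefSeq (GRCh38.p14) are given because a microRNA is read from its host transcript. Capitals mark the seed, bases 2 to 8 from the 5′ end, and the 5 seeds all differ.
hsa-miR-675-5p, in H19: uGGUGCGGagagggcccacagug
hsa-miR-675-3p, in H19: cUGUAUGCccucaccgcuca
hsa-miR-335-5p, in MEST: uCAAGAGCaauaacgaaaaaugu
hsa-miR-335-3p, in MEST: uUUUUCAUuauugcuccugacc
hsa-miR-770-5p, in MEG3: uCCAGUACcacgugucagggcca
These libraries measure polyadenylated transcripts, so levels of mature microRNAs are not given here. Reads assigned to the MIR770 gene came to 16.2 and 14.3 normalized counts in the resistant libraries, against 14.5 and 7.95 in the parental ones. The gene did not pass the test (limma adjusted p = 0.355). MIR770 shares 98 exonic bases with MEG3 on the same strand, so reads of MIR770 and MEG3 cannot be told apart there.

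Vincristine-resistant cells held more RNA of most of these imprinted genes. Of the 10 genes, 7 rose, NNAT, PEG3, DLK1, PLAGL1, H19, MEG3 and MEST, 2 fell, PEG10 and GRB10, and SNRPN did not pass the test. The test was limma on the log2 of the normalized count plus 1, with a Benjamini-Hochberg adjusted p below 0.05 over all 18330 genes tested. Over all of those genes 32.7% were called higher, 34.2% lower and 66.9% either way, so the 9 calls among 10 genes are to be read against a comparison in which most genes were called. The size of the changes was less common. NNAT, PEG3, DLK1 and PLAGL1 rose at least 4-fold, as did 3.39% of all genes tested, and with H19 5 of the 10 rose at least 2-fold, as did 8.96% of all genes. The median log2 fold change of the 10 genes was 1.07, and that of all genes tested was 0.00427. The 10 genes were chosen with earlier results of these data known. These shares and medians therefore cannot show that imprinted genes changed more than other genes. PEG3, DLK1 and H19 also had few parental reads, 7, 20 and 30 in all.

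**Figure D1:**
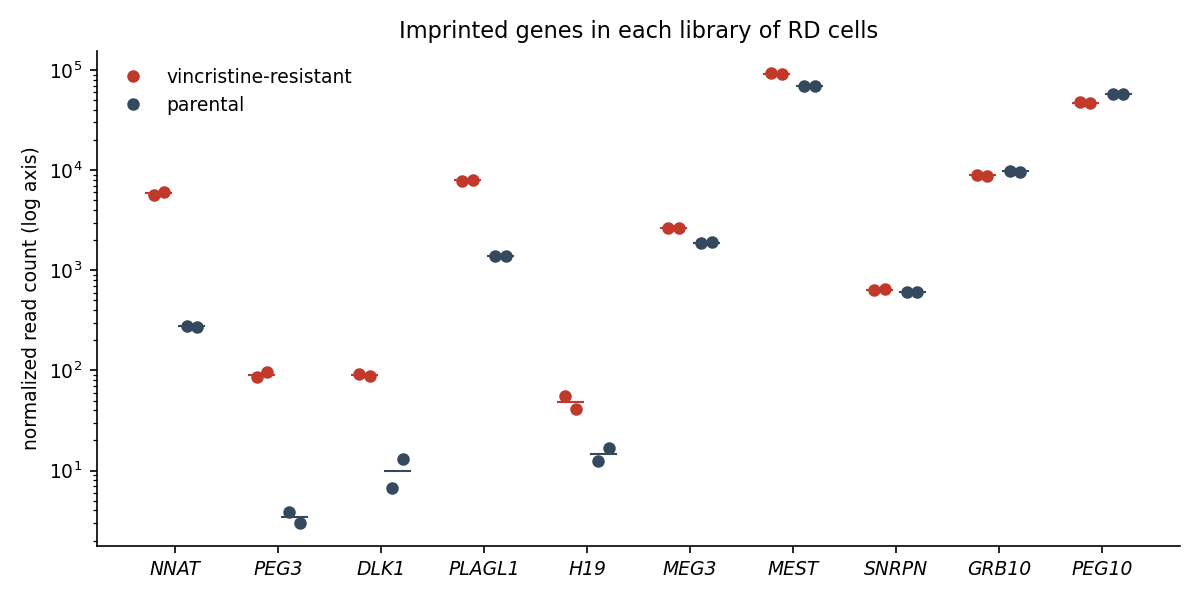
Normalized read count (log axis) of each imprinted gene in each of the 4 libraries, with red points for resistant and dark points for parental cells, and a line at each group mean. NNAT, PEG3, DLK1 and PLAGL1 show the widest gaps between the groups, and MEST and PEG10 the highest counts.

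NNAT encodes neuronatin, a small membrane proteolipid of the endoplasmic reticulum that is abundant in the developing brain. It had 5638 and 6089 normalized counts in the resistant libraries, against 278 and 273 in the parental libraries. Both resistant libraries lay far above both parental libraries. The log2 fold change was 4.40 (SE 0.06, limma adjusted p = 1.42e-28), which is 21.2-fold and the 55th largest increase of all genes tested. In the whole-read counts the ratio was 21.3, with an exact 95% counting interval of 19.6 to 23.2. Of the neural markers TUBB3, SYP, GFAP and RBFOX3, 3 were measured, and RBFOX3 was not among the measured genes. The summed level of these 3 was 2566 and 3087 in resistant cells against 3278 and 3200 in parental cells. Of them 0 were called higher and 2, TUBB3 and SYP, were called lower. TUBB3 made up most of the sums, and its groups overlapped. It had 2384 and 2869 normalized counts in resistant and 2925 and 2859 in parental libraries (limma adjusted p = 0.0252).

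NNAT lies on chromosome 20 from 37521206 to 37523693 (ENSG00000053438, plus strand, GRCh38), within the span of BLCAP, which is transcribed from the opposite strand. BLCAP, a gene whose transcripts are biallelic in most tissues, fell, with 10765 ± 109 normalized counts in resistant and 15376 ± 224 in parental cells (SD, here and later over n = 2 libraries per group). Its log2 fold change was -0.51 (SE 0.03). The 2 genes share 85 exonic bases, 6.38% of those of NNAT. No strand setting is stated for the counting, so reads in that stretch cannot be told apart. Of 30 tested genes that start within 1 Mb of NNAT, 3 rose, 18 fell and 9 did not pass, with TGM2, the transglutaminase gene, the highest (log2 fold change 2.83) and VSTM2L the lowest (-2.80). For this count and those at the other loci below, the shares over all genes tested were 32.7% higher and 34.2% lower. No locus count was tested against them.

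PEG3 encodes a zinc finger protein that marks stem and progenitor cells of muscle and other tissues in mice and acts in p53-linked cell death. It had 85.5 and 96.4 normalized counts in the resistant libraries, against 3.87 and 2.98 in the parental ones, which are 79 and 101 reads against 4 and 3. The parental libraries were near the detection limit, and the groups did not overlap. The log2 fold change was 4.38 (SE 0.35, limma adjusted p = 1.83e-11). The ratio in whole reads was 26.6 with an exact 95% counting interval of 12.7 to 67.1. With a pseudocount of 5 in place of 1 the log2 fold change was 3.51. Even in resistant cells PEG3 had the lowest level per kilobase of exon among the 10 genes.

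Beside PEG3 on chromosome 19, ZIM2 and ZIM2-AS1 rose as well. ZIM2, a zinc finger gene that shares the promoter region and the first exons of PEG3, had 48.7 and 45.8 normalized counts in the resistant libraries against 2.90 and 0.994 in the parental ones, and its log2 fold change was 4.11 (SE 0.47). ZIM2-AS1, a noncoding RNA on the opposite strand, had 554 and 604 normalized counts in the resistant libraries against 22.2 and 18.9 in the parental ones, and its log2 fold change was 4.75 (SE 0.16, limma adjusted p = 1.41e-19). It was the highest of the 57 tested genes that start within 1 Mb of PEG3, of which 15 rose, 21 fell and 21 did not pass. ZIM2 and PEG3 share 1264 exonic bases, 41.2% of those of ZIM2 and 12.9% of those of PEG3, so reads of this pair may have been split or dropped. Zinc finger genes farther out moved in both directions. ZSCAN5B, which starts within 1 Mb of PEG3, rose by 3.81, and ZNF835 (0.50) and ZNF667 (0.28) rose, while ZNF264 (-0.39, SE 0.08), ZNF71 (-0.68, SE 0.05) and ZNF583 (-0.55, SE 0.07) fell. PEG3 lies from 56810077 to 56840728 on the minus strand (ENSG00000198300).

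Like PEG3, most of the measured muscle markers were higher in the resistant libraries, a likeness shared by every gene called higher. Of 8 markers of skeletal muscle and rhabdomyosarcoma, 7 were measured and 6 were called higher. Over all genes tested, 32.7% were called higher. The summed level of the markers was 154606 and 158410 normalized counts in the resistant libraries against 86283 and 86134 in the parental ones. PAX7, the satellite cell factor, was the marker with the largest log2 fold change (3.58, SE 0.05). MYOD1 did not pass, and MYF5 was not among the measured genes. The part of these markers in the increase of PEG3 was not tested. The muscle identity named by the labels is present in both groups. Of markers of other cell types, 0 of 4 endothelial genes and 1 of 4 immune genes were measured, and that gene, CD14, had at most 49.6 normalized counts in any library. Of the fibroblast markers, 3 of 4 were measured and THY1 was called higher, with sums of 13197 and 12978 in resistant cells against 8073 and 8309 in parental cells. THY1 made up nearly all of these sums. PDGFRA and LUM did not pass and had at most 43.3 normalized counts in any library. Of the 4 epithelial markers 1, CDH1, was called higher, with sums of 171 and 105 in resistant cells against 96.7 and 103 in parental cells.

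DLK1 encodes a transmembrane protein related to the Notch ligands, known as preadipocyte factor 1, which holds back adipocyte differentiation and is shed by ADAM17. It had 92.0 and 87.8 normalized counts in the resistant libraries, against 6.77 and 12.9 in the parental ones, from 177 and 20 reads in all. The groups did not overlap. Its log2 fold change was 3.13 (SE 0.31, limma adjusted p = 1.11e-09), and its read ratio was 9.16 with an exact 95% counting interval of 5.75 to 15.4. DLK1 lies on chromosome 14 from 100725705 to 100738224 (ENSG00000185559, plus strand).

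MEG3, the long noncoding RNA downstream of DLK1, has been linked to p53 activity and growth suppression. It had 2677 and 2649 normalized counts in the resistant libraries, against 1886 and 1899 in the parental ones, and its log2 fold change was 0.49 (SE 0.04, limma adjusted p = 1.52e-10). The increase was above the spread between replicates and smaller in size than that of DLK1, a difference between genes that was not tested. Of the other maternally expressed RNAs of this locus, MEG8 had 94.2 ± 19.8 normalized counts in resistant and 69.2 ± 6.22 in parental cells and did not pass (limma adjusted p = 0.0535), and MEG9 did not pass either (limma adjusted p = 0.840). DIO3, the paternally expressed thyroid hormone deiodinase gene at the far end of the domain, rose by a log2 fold change of 1.83 (SE 0.55, limma adjusted p = 0.00476) on few reads, with 14.1 and 21.0 normalized counts in the resistant libraries against 1.93 and 7.95 in the parental ones. Of the genes that flank the domain, BEGAIN, WDR25, WARS, SLC25A29 and YY1 did not pass, with log2 fold changes from -0.13 to 0.02. Farther out, EVL (-0.26) and EML1 (-0.64) were called lower and PPP2R5C (0.30) higher. MEG3 lies from 100779410 to 100861031 (ENSG00000214548, plus strand), downstream of DLK1.

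**Figure D2:**
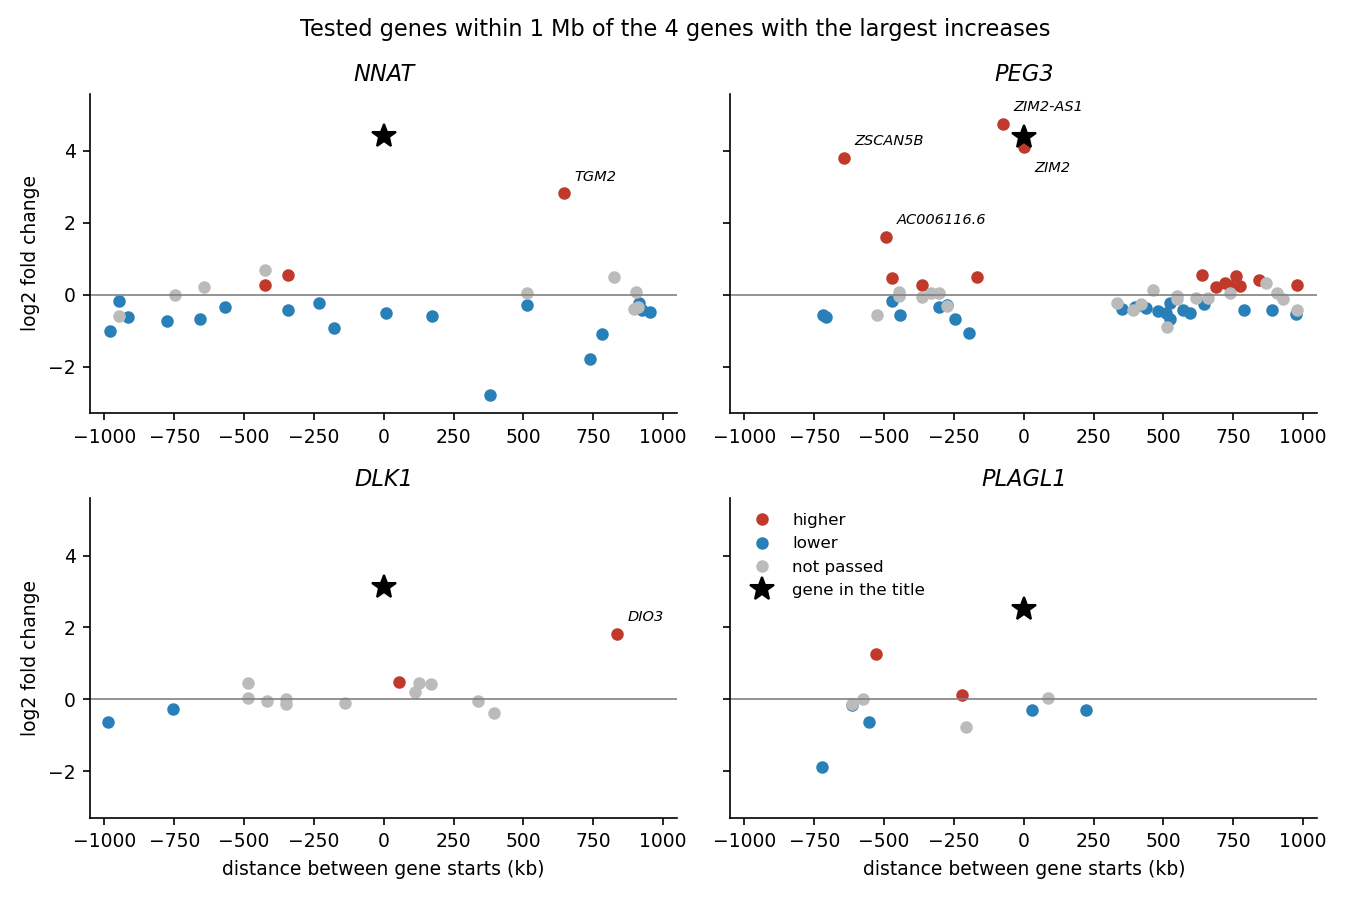
Log2 fold change (resistant over parental cells) of every tested gene that starts within 1 Mb of NNAT, PEG3, DLK1 or PLAGL1, against the distance between gene starts in kb, with red for called higher, blue for called lower and grey for not passed. The increases of these 4 genes, drawn as stars, stand above their surroundings, except around PEG3 (4.38). There ZIM2-AS1 (4.75) lies higher, and ZIM2 (4.11) and ZSCAN5B (3.81) lie a little lower.

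PLAGL1, also called ZAC1, encodes a zinc finger transcription factor that can arrest the cell cycle and induces other imprinted genes in mice. It had 7885 and 7999 normalized counts in the resistant libraries, against 1384 and 1403 in the parental ones. The 2 libraries of each group lay close together and the groups lay far apart. The log2 fold change was 2.51 (SE 0.04, limma adjusted p = 1.08e-26), a 5.70-fold increase. PLAGL1 lies on chromosome 6 from 143940300 to 144064599 (ENSG00000118495, minus strand), and the table does not say which of its starts, among them the CpG-rich one printed above, was used.

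Of 8 measured genes around PLAGL1, 2 rose, 4 fell and 2 did not pass. PHACTR2, an actin regulator gene, rose by a log2 fold change of 1.27 (SE 0.07), and LTV1 by 0.11 (SE 0.04). UTRN, the gene of utrophin (-0.30, SE 0.03), and FUCA2 (-0.64, SE 0.04) fell. HYMAI, the noncoding RNA that starts at the imprinted PLAGL1 promoter and shares 3.31% of the exonic bases of PLAGL1, was not analysed here.

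H19 is a fetal long noncoding RNA that shares enhancers with IGF2 and is silent on the paternal copy. It stayed low in both groups, with 55.2 and 41.0 normalized counts in the resistant libraries against 12.6 and 16.9 in the parental ones, which are 94 and 30 reads in all. The log2 fold change was 1.64 (SE 0.31, limma adjusted p = 4.53e-05), and the read ratio was 3.24 with an exact 95% counting interval of 2.13 to 5.07. H19 lies on chromosome 11 from 1995176 to 2001470 (ENSG00000130600, minus strand).

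IGF2, which shares the H19 control region, had 655297 and 699588 normalized counts in the resistant libraries against 425391 and 421719 in the parental ones, and its log2 fold change was 0.68 (SE 0.03), although 73.7% of its exonic bases are also annotated under another IGF2 identifier. Per kilobase of exon H19 was at 16.6 in the resistant and 5.09 in the parental group. In the neighbouring KCNQ1 domain, KCNQ1OT1, the paternally expressed noncoding RNA, rose by 0.49 (SE 0.11). The maternally expressed growth-restraining genes PHLDA2 (-1.31, SE 0.05), CDKN1C (-0.57, SE 0.10) and SLC22A18 (-0.90, SE 0.08) fell. Of 16 measured genes of the 2 domains, 7 rose, 8 fell and 1 did not pass, with a median log2 fold change of 0.06.

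MEST encodes an enzyme of the alpha/beta hydrolase family that is high in embryonic mesoderm and in growing fat. It was the most abundant of the 10 genes, with 93044 and 91100 normalized counts in the resistant libraries against 69051 and 69452 in the parental ones. The log2 fold change was 0.41 (SE 0.03, limma adjusted p = 1.16e-13), a 1.33-fold increase. MEST lies on chromosome 7 from 130486171 to 130506465 (ENSG00000106484, plus strand), and its 20 nearest tested genes had a median log2 fold change of 0.28. With that median subtracted the value of MEST was 0.13 and still passed (limma adjusted p = 8.06e-05), a p-value that takes the median as known.

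The genes next to MEST moved in both directions. CEP41, a centrosomal protein gene, rose by 1.33 (SE 0.05), and the carboxypeptidase genes CPA1 (3.63, SE 0.45) and CPA5 (1.66, SE 0.20) rose on low counts. CPA4, an imprinted carboxypeptidase gene, fell by 1.65 (SE 0.04) on the log2 scale, and COPG2, which overlaps MEST from the opposite strand, fell by 0.12 (SE 0.05). MEST shares 12.6% of its exonic bases with the antisense gene AC007938.2, 10.1% with MESTIT1 and 4.76% with COPG2, all on the opposite strand, and how many of its reads fall in these stretches was not measured. AC007938.2 rose by a log2 fold change of 0.62. AC007938.1 (1.04) and AC007938.3 (0.95), which also start close to MEST, rose as well.

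PEG10 encodes a gag and pol protein derived from a retrotransposon, which is needed for the placenta in mice. It had 47618 and 47066 normalized counts in the resistant libraries, against 57451 and 57167 in the parental ones, and its log2 fold change was -0.28 (SE 0.03, limma adjusted p = 4.83e-10). The difference was small but larger than the spread between replicates. It did not pass when a change above 1.2-fold was required (limma treat adjusted p = 0.590) or with the dispersion between libraries fixed at 0.01 (edgeR adjusted p = 0.115). PEG10 lies on chromosome 7 from 94656325 to 94669695 (ENSG00000242265, plus strand).

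SGCE, the sarcoglycan gene that starts beside PEG10 on the opposite strand, had 2611 ± 28.3 normalized counts in resistant and 2680 ± 40.3 in parental cells and did not pass (limma adjusted p = 0.447). Farther out in the same domain, PPP1R9A, a neuronal actin-binding protein gene (-1.92, SE 0.06), and TFPI2, a protease inhibitor gene (-1.83, SE 0.05), fell, while PON2 (0.68, SE 0.03) and ASB4 (1.56, SE 0.47) rose. Of 10 measured genes of the domain, 4 rose, 4 fell and 2 did not pass. Of other genes of the retrotransposon-derived family of PEG10, 4 named here fell, with RTL8A at -0.74 (SE 0.05), RTL5 at -0.72 (SE 0.05), RTL8C at -0.66 (SE 0.04) and RTL6 at -0.34 (SE 0.04), while RTL8B rose by 0.29 (SE 0.05). RTL8A, RTL8B and RTL8C are near-identical copies, so reads may have been split or lost between them.

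GRB10 encodes an adaptor protein that binds the insulin and IGF1 receptors and dampens their signal. It had 8885 and 8831 normalized counts in the resistant libraries, against 9750 and 9697 in the parental ones, and its log2 fold change was -0.13 (SE 0.03, limma adjusted p = 0.000485). This was the smallest called change of the 10 genes, and it depended on the setting. With the median of its 20 nearest tested genes (-0.17) subtracted, the value was 0.03 and did not pass (limma adjusted p = 0.381). It did not pass against 1.2-fold (limma treat adjusted p = 1.00) or in edgeR when a dispersion of 0.01 was imposed (adjusted p = 0.491) either. GRB10 lies on chromosome 7 from 50590063 to 50793462 (ENSG00000106070, minus strand).

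Among 33 measured partners and relatives of the 10 genes, 13 rose, 16 fell and 4 did not pass, with a median log2 fold change of -0.07, against 32.7% higher and 34.2% lower over all genes tested. The genes of the receptors that GRB10 binds moved in opposite directions. INSR, the insulin receptor gene, had 406 ± 10.2 normalized counts in resistant and 964 ± 3.74 in parental cells, and its log2 fold change was -1.24 (SE 0.07), while IGF1R rose by 0.12 (SE 0.04). Of their substrates, IRS1 rose by 0.47 (SE 0.03) and IRS2 fell by 0.84 (SE 0.09) on the log2 scale. Among the Notch genes near DLK1 in function, HES1, a Notch target, rose by 1.62 (SE 0.07), NOTCH3 rose by 0.62 (SE 0.03), NOTCH2 fell by 0.29 (SE 0.03) on the log2 scale, and ADAM17 fell by 0.33 (SE 0.03).

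SNRPN encodes the spliceosomal protein SmN, the brain-enriched relative of SNRPB. It had 630 and 649 normalized counts in the resistant libraries, against 609 and 607 in the parental ones, and its log2 fold change was 0.07 (SE 0.07, limma adjusted p = 0.388). Both resistant libraries lay above both parental libraries, by a small margin. The read ratio was 1.05, with an exact 95% counting interval of 0.972 to 1.14. With the median of its 20 nearest tested genes (0.44) subtracted, the value was -0.37 and passed (limma adjusted p = 5.89e-05), a p-value that takes the median as known. SNRPN lies on chromosome 15 from 24823637 to 24978723 (ENSG00000128739, plus strand) and shares 23.8% of its exonic bases with SNURF, 15.8% with AC124312.1 and 4.13% with SNHG14, all on the same strand, so its count is uncertain.

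Of other genes of the SNRPN locus, some rose and some fell. SNHG14, the long host transcript of the small nucleolar RNAs of this locus, rose to a normalized count of 14090 ± 120 in resistant cells, against 10176 ± 29.4 in the parental group, and its log2 fold change was 0.47 (SE 0.03). PWAR6, another noncoding RNA of the region, rose by 1.16 (SE 0.09). SNURF fell by 0.27 (SE 0.11) on the log2 scale (limma adjusted p = 0.0372), with 69.3% of its exonic bases shared with SNRPN. NDN, the gene of necdin, fell by 0.11 (SE 0.03), MAGEL2 rose by 0.63 (SE 0.16), and UBE3A, the ubiquitin ligase gene whose paternal copy SNHG14 silences in neurons, did not pass (limma adjusted p = 0.269).

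**Figure D3:**
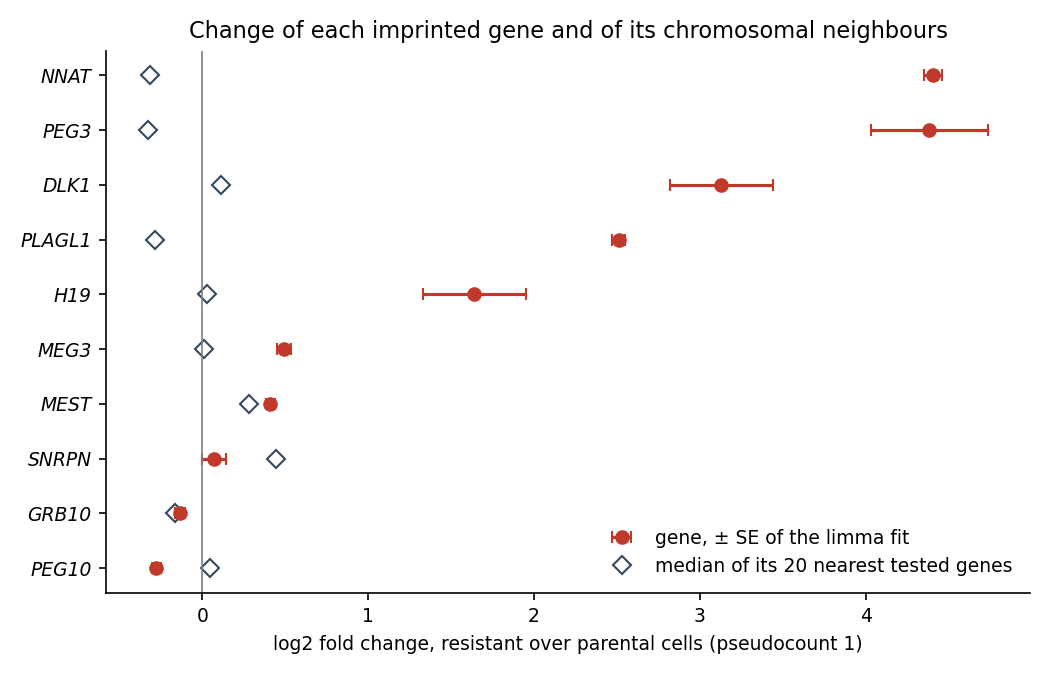
Log2 fold change of each imprinted gene (red points, bars ± SE of the limma fit) and the median of its 20 nearest tested genes on the chromosome (open diamonds). The top 5 genes lie far to the right of their neighbours, and GRB10 lies on the value of its neighbours.

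The levels of the 10 genes span a wide range. As normalized counts per kilobase of annotated exon, MEST came first in both groups, with 19206 in resistant cells and 14445 in parental cells, and PEG10 second, with 7078 in resistant cells and 8568 in parental cells. NNAT followed PEG10 in resistant cells at 4402, and lay below GRB10 in parental cells at 207. PLAGL1 and GRB10, at 909 and 904 in resistant cells, did not differ beyond the spread of their libraries, nor did DLK1 and H19, at 16.9 and 16.6. In parental cells PLAGL1 had 160 and GRB10 993. PEG3 came last in both groups, with 9.31 in resistant cells and 0.351 in parental cells. The exon length is the union of all annotated transcripts, so the level per kilobase of MEG3 (115 in resistant and 81.5 in parental cells), with 23224 exonic bases, is a low estimate.

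A likeness of pattern was measured as the distance between centred log2 values over the 4 libraries. The genes nearest to NNAT were EN1, S1PR3 and TG, those nearest to PEG3 were CDH6, NNAT and S1PR3, and those nearest to DLK1 were FAS, ARHGDIB and AC084200.1. With 2 groups this measure mostly matches genes with the same fold change, and FAS, the nearest to DLK1, had a log2 fold change of 3.11.

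Of 17 measured imprinted genes at other loci, 7 rose, 7 fell and 3 did not pass, with a median log2 fold change of -0.23, where 32.7% of all genes tested were called higher and 34.2% lower. INPP5F (1.17, SE 0.05), DIRAS3, a growth-restraining small GTPase gene (0.77, SE 0.15), and ZNF331 (0.71, SE 0.08) rose. NAP1L5 (-0.96, SE 0.07), the peptidase gene HM13 (-0.79, SE 0.03) and ZDBF2 (-0.57, SE 0.08) fell. Among the 88 measured genes that share a locus with the 10 imprinted genes, imprinted or not, 31 rose, 38 fell and 19 did not pass, with a median of -0.05. Neither count was tested against the share of all genes.

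Of 19 measured genes that maintain imprints and DNA methylation, 6 rose, 6 fell and 7 did not pass, with a median log2 fold change of 0.04. Both shares lie near those of all genes tested, so nothing particular to these genes is read from them. HELLS, a chromatin remodeller needed for DNA methylation, had the largest change and rose by 1.58 (SE 0.04). SMCHD1, a repressor of imprinted clusters and the inactive X chromosome, rose by 0.49 (SE 0.04), as did the methyltransferase gene DNMT3B by 0.44 (SE 0.06), while DNMT3A fell by 0.36 (SE 0.03) on the log2 scale. ARID4A (-0.49, SE 0.05) and SUV39H2 (-0.47, SE 0.05) fell as well. ZFP57, whose motif is marked in the sequences above, was not analysed here.

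**Figure D4:**
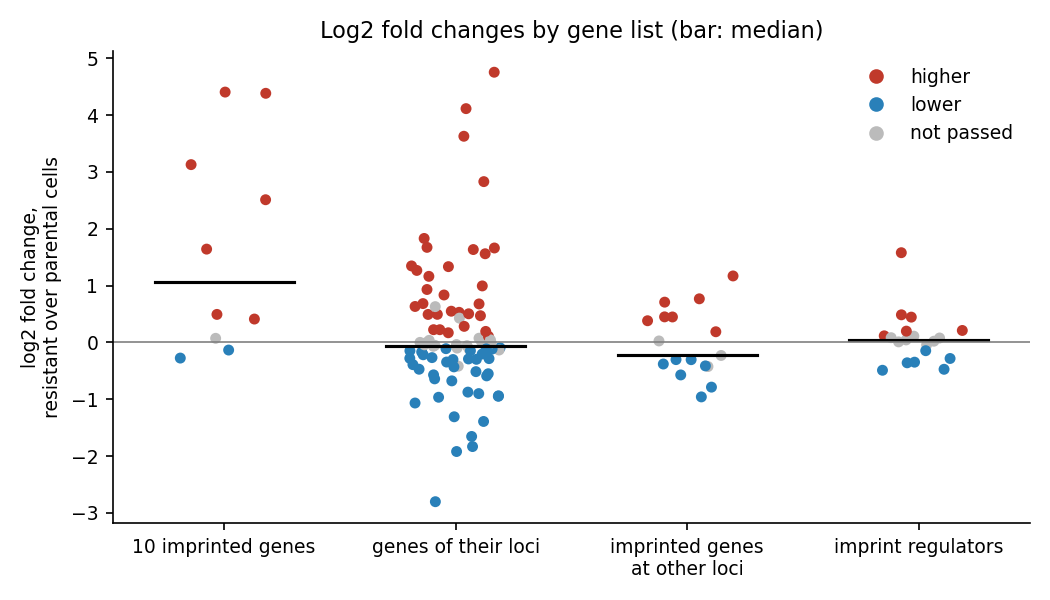
Log2 fold change (resistant over parental cells) of each measured gene in 4 lists, with red for called higher, blue for called lower, grey for not passed and a bar at the median. The 10 imprinted genes have a median of 1.07, against -0.05 for genes of their loci, -0.23 for imprinted genes at other loci and 0.04 for imprint regulators. The lists were chosen with earlier results of these data known, and the medians were not tested against each other.

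In the authors' deposited table, 9 of the 10 genes, all but SNRPN, had an adjusted p below 0.05. So did 10401 of its 18375 genes. Those calls come from the same 4 libraries and are not independent of the calls given here.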

How the data were processed

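The authors used bcl2fastq 2.17, STAR 2.5.2b, Subread 1.5.2 with featureCounts, DESeq2 and the build GRCh38, per the submitters' processing notes. For the annotation and the strandedness of the counting, no source used here gives a value. The library columns deposited by the authors hold a signal of gene counts divided by a size factor per library, and every value was a whole multiple of the library's step within 0.01, so whole reads were recovered (58861281 to 67690557 per library over the table). The authors' log2 fold changes and p-value columns are resistant over parental, per the file headers. Genes that reached 10 in 2 or more libraries were tested (18330), and log2(value + 1) was fitted with limma 3.58.1 (R 4.3.3) on group alone; fold changes are on this scale, which can understate low genes. The common dispersion between replicates (edgeR 4.0.16) was 0.000566, and replicates differed beyond counting noise (chi-square per gene 3.99 in the resistant and 1.60 in the parental pair). Alternatives included edgeR and DESeq2 1.42.0 on whole reads. Read-ratio intervals are exact binomial on reads pooled over the libraries of a group, and they leave out the scatter between replicates. They may be too narrow even for counting error, because amplified copies of a molecule are not independent. Positions are from GENCODE 29 on GRCh38, which held 96.9% of the identifiers. The members and gene lists were chosen with earlier results of these data known. Genes named are all members, any measured gene of their loci, and, of other lists, up to 6 called genes with the largest change and a mean of at least 100; ZSCAN5B, IGF1R, IRS1, NOTCH2, NOTCH3, ADAM17 and the RTL genes other than RTL8A were named after their values were seen.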

Additional observations from a re-analysis of the deposited data

How the results depend on the processing

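The alternatives changed the pseudocount, filter, scaling, test, replicates and neighbour correction 1 at a time. NNAT, PEG3, DLK1, PLAGL1, MEG3 and MEST kept direction and call under all 16 alternatives and H19 under all 15 that kept it in the test. Values ranged from 4.35 to 4.72 for NNAT, 3.51 to 4.73 for PEG3, 2.71 to 3.55 for DLK1 and 1.42 to 1.85 for H19. With the neighbour median removed, SNRPN was -0.37 and GRB10 0.032; the cause was not tested. With a change above 1.2-fold required (limma treat), 3380 higher and 3414 lower genes passed, 0 members and 20 locus genes were lower, 3 other imprinted genes were higher and 3 lower, and 3 imprint regulators were higher and 3 lower. With the dispersion fixed at 0.01 (chosen after seeing the data), 3880 genes, 0 members, 22 locus genes and 4 other imprinted genes were lower, and 3 imprint regulators higher. Both settings are stricter by construction. Without each library in turn, 7 members were higher and 2 lower each time, 5298 to 5861 genes were higher and 5483 to 6331 lower, 27 to 30 locus genes higher and 31 to 39 lower, 6 to 7 other imprinted genes higher and 6 to 7 lower, and 5 to 8 imprint regulators higher and 5 to 7 lower. The labels give the groups the same replicate numbers, but deviations of same-numbered libraries had a correlation of -0.03; with a replicate block, 5926 genes were higher and 6218 lower, 7 members higher and 2 lower, and no call of a member changed. Depth limits PEG3, DLK1 and H19, which had under 100 parental reads each.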
